A study of Mus musculus with 8 samples.

Results

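The data are direct RNA sequencing reads from P19 cells, a mouse embryonal carcinoma line, of wild-type genotype and not yet induced to differentiate. Starting 1 day after plating, cultures received MHY1485 at 10 µM (MHY) or a matching amount of the solvent DMSO, and RNA was taken after 24 h. These 4 libraries are part of 8 in the series, the other 4 being the same treatments at 48 h. Members were chosen by label: every read with a passing tail estimate in the 2 DMSO and 2 MHY libraries of 24 h, counted once per transcript it aligned to. The libraries are named by the numbers in the deposited table, 21 and 23 for each treatment. The study describes the replicates as biological, while the labels only number them, so the spread between libraries 21 and 23 may be partly technical. The line is 1 immortal cell line, and in bulk RNA a smaller number of cells of some kind and less RNA per cell cannot be told apart.

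mTOR is a kinase that senses nutrients and growth factors. When active it promotes translation, in particular of mRNAs that begin with a run of pyrimidines (TOP mRNAs, which encode ribosomal proteins and elongation factors), and it restrains lysosome formation and autophagy. MHY1485 is sold as an mTOR activator and is also known to block the fusion of autophagosomes with lysosomes. The poly(A) tail at the 3′ end of an mRNA binds poly(A)-binding protein, which protects the mRNA and aids translation, and tails are shortened by deadenylases as an mRNA ages. Here each tail was placed in a class. The study used under 30 nucleotides (nt), too short for stable protein binding, and 30 to 90 nt. The class of over 90 nt was added here.

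The reads kept numbered 191045 and 275860 in DMSO libraries 21 and 23 and 224975 and 178369 in MHY libraries 21 and 23, over 22911 transcripts of 12028 genes. Each of 3 runs held reads of all 4 libraries. The median speed through the pore was 120.48 nt per second in all 4 libraries, and the median aligned length was between 804 and 831 nt. Pluripotency markers took 0.575%, 0.605%, 0.587% and 0.573% of the reads in DMSO 21, DMSO 23, MHY 21 and MHY 23, and Pou5f1, the defining factor of this state, had 2607, 2907, 2480 and 2618 reads per 1000000 kept reads (RPM). Markers of neurons (0.0333% to 0.0449%), mesendoderm (0.00617% to 0.0163%) and fibroblasts (0.00157% to 0.00356%) were far lower, and none of these 4 marker lists separated the treatments. All values below follow the same library order, DMSO 21, DMSO 23, MHY 21, MHY 23.

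The first question was whether 24 h of MHY1485 shifted tail length over the whole transcriptome. The median tail was 100.67, 102.5, 100.13 and 101.48 nt, so the treatments overlapped and the means differed by -0.78 nt (exact permutation p = 0.667, two-sided, where 2 against 2 libraries cannot go below 0.33). The mean tail was 107.98, 109.1, 107.7 and 107.8 nt, lower in both MHY libraries by 0.79 nt on average, less than the gap between the DMSO libraries. The 90th percentile was 175.3, 176.6, 175.1 and 172.9 nt, lower in both, and the 5th percentile was 37.6, 36.7, 37.7 and 38.4 nt, higher in both (exact permutation p = 0.33 for the 3 measures, the smallest possible). The shortest tails were separated. Tails under 30 nt made up 2.34%, 2.72%, 2.23% and 2.17% of the reads, lower in both MHY libraries (exact permutation p = 0.33, the smallest possible). They were lower by 0.33 percentage points on average, less than the gap between the DMSO libraries. The 95% Wilson intervals, which cover counting error only, were 2.277% to 2.412% in DMSO 21 and 2.173% to 2.295% in MHY 21, the closest pair, so those 2 intervals overlapped.

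The long end depended on where it was taken to begin. Tails over 150 nt were 18.7%, 19.6%, 18.6% and 18.4% of the reads, and the distance between the 25th and 75th percentiles was 69.7, 70.4, 69.6 and 68.6 nt, both lower in the 2 MHY libraries. The gaps between DMSO 21 and MHY 21 in these 2 measures were smaller than the gap between the DMSO libraries. Tails over 200 nt were 5.67%, 5.64%, 5.65% and 4.95% of the reads and the 95th percentile was 205.6, 205.03, 205.6 and 199.7 nt, both of which overlapped, with only MHY 23 apart from the other 3 libraries. The share of 30 to 90 nt was 39.5%, 37.9%, 40.1% and 39.1% and overlapped. Of 31 bins of tail length, the MHY shares were the lowest in 6 (10 to 30 nt, 190 to 220 nt and 230 to 240 nt) and the highest in 3 (70 to 90 nt and 100 to 110 nt). The other 22 overlapped. With 2 libraries a treatment some bins separate by chance alone, and the bins were not tested. The lower share under 30 nt held in each of the 3 sequencing runs.

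**Figure D1:**
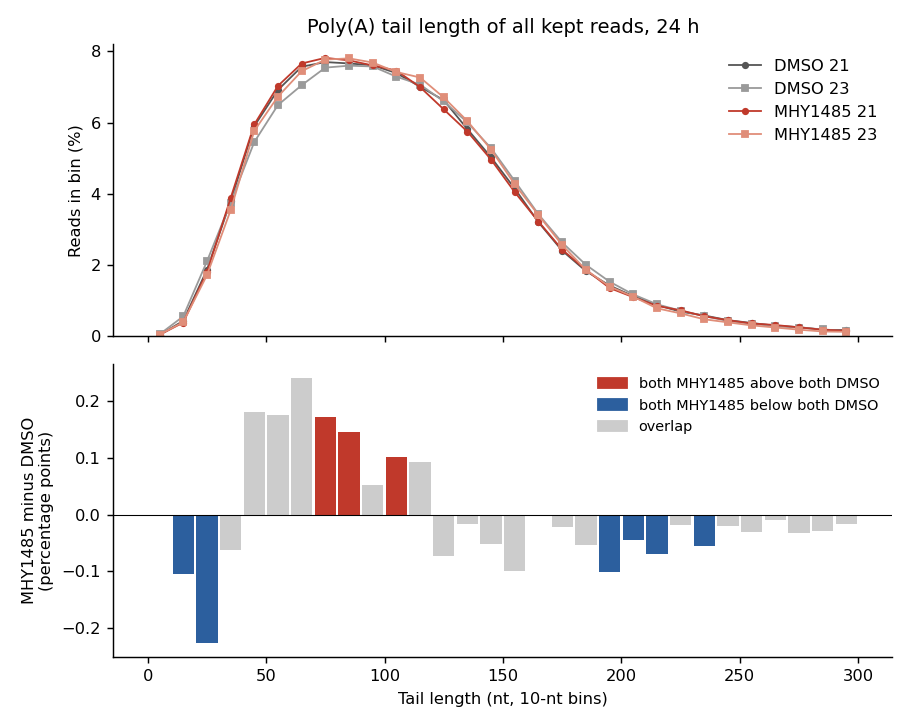
Upper panel: percent of kept reads in each 10-nt bin of tail length for the 4 libraries of 24 h. Lower panel: MHY mean minus DMSO mean in percentage points, coloured where both MHY libraries lay above (red, 3 bins) or below (blue, 6 bins) both DMSO libraries. The bins were not tested, and most overlapped.

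The second question was which mRNAs changed in amount. Read counts were tested for 4104 transcripts with limma voom, and 2 were called higher (0.0487%) and 0 lower (0%) at a Benjamini-Hochberg adjusted p under 0.05. At an unadjusted p under 0.05 there were 109 higher (2.66%) and 74 lower (1.8%), and the median log2 fold change over all transcripts tested was 0.01. Both called mRNAs encode metal-binding proteins. Ftl1 encodes the light chain of ferritin, the iron store of the cell, and Mt1 encodes a metallothionein, which binds zinc and copper.

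Ftl1 (ENSMUST00000094434, mm10 chr7:45457944-45459884, minus strand, protein coding) had 1952, 1896, 2783 and 2983 RPM. Both MHY libraries were well above both DMSO libraries, and the 2 libraries of a treatment lay close together. Ftl1 rose 1.5-fold (log2 0.58, SE 0.12, adjusted p = 0.0114, limma voom). The values separated in each run, with 1985, 1980, 2821 and 2920 RPM in run 1, 1927, 1691, 2627 and 3044 in run 2, and 1929, 2031, 2932 and 3008 in run 3. The call was lost when any 1 of the 4 libraries was left out (log2 0.52 to 0.67), with limma-trend in place of voom (adjusted p = 0.0718), and among reads with a mapping quality of at least 10 (log2 0.53, adjusted p = 0.661, limma voom). Ftl1 has near-identical copies, and 1 of them, Ftl1-ps1, which the table types as protein coding, was counted as its own transcript, with 91, 139, 136 and 115 reads (log2 0.35, SE 0.17, adjusted p = 0.997, limma voom). Reads could be split between the copies.

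The heavy chain of ferritin, Fth1 (ENSMUST00000025563, mm10 chr19:9982646-9985098, plus strand), did not pass the test. It had 1136, 1004, 1182 and 1121 RPM (log2 0.12, SE 0.14, adjusted p = 0.997, limma voom), and the lower MHY value lay inside the DMSO range on this scale. Both ferritin mRNAs carry an iron-responsive element near the 5′ end, a hairpin bound by iron regulatory proteins that hold back translation when iron is scarce. The 30 bases around its loop are shown because the chains share the element and differed in their counts. They span transcript positions 78 to 107 of Ftl1 and 87 to 116 of Fth1 (GENCODE vM21), with the loop letters CAGTGN in capitals.
Ftl1: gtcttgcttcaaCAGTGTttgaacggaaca
Fth1: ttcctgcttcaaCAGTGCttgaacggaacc

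The iron list held 18 genes, of which 13 could be tested, and Ftl1 was the 1 called. Its summed reads were 0.47%, 0.441%, 0.571% and 0.58% of the library, higher in both MHY libraries, and most of this difference was Ftl1 itself. Of the 13, 5 lay above (38.5%) and 2 below (15.4%), against 16.6% and 17.3% of all transcripts tested. These and the later counts of transcripts whose reads lay above or below use reads divided by the size factors of the fit, a scale that can differ from RPM for close values. Fth1 is among the 5 on that scale and overlaps in RPM. Pcbp1, an iron chaperone that loads ferritin, had 445, 395, 516 and 577 RPM (log2 0.39, SE 0.17, unadjusted p = 0.0279, limma voom, not called). Tfrc, the transferrin receptor for iron uptake, had 62.8, 39.9, 22.2 and 16.8 RPM, and Aco1, an iron regulatory protein, had 52.3, 58.0, 26.7 and 16.8. Both were lower in the 2 MHY libraries and neither was called (Tfrc log2 -1.16, SE 0.70, and Aco1 log2 -1.22, SE 0.64, adjusted p = 0.997 for both, limma voom). These 2 rest on 3 to 16 reads a library. Ireb2, the other iron regulatory protein, had 26.2, 50.8, 57.8 and 44.9 RPM and overlapped (log2 0.37, SE 0.47, adjusted p = 0.997, limma voom). Tfrc, Aco1 and Ireb2 were chosen after their values were seen.

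Mt1 (ENSMUST00000034215, mm10 chr8:94179082-94180327, plus strand, protein coding) had 109.9, 36.25, 169 and 191 RPM, from 21, 10, 38 and 34 reads. Both MHY libraries were above both DMSO libraries, but the DMSO libraries differed from each other more than the MHY libraries did. Mt1 rose 3.07-fold (log2 1.62, SE 0.34, adjusted p = 0.0114, limma voom). Without DMSO library 23 the log2 fold change was 0.67 (adjusted p = 0.999, limma voom), and the call was also lost without MHY 21 (1.75, adjusted p = 0.171) or MHY 23 (1.51, adjusted p = 0.599) but kept without DMSO 21 (2.27, adjusted p = 0.0239). With limma-trend it was 1.48 (adjusted p = 0.222), and with a replicate block it was 1.37 (adjusted p = 0.121). The treatments overlapped in run 3, where the 4 libraries held 8, 4, 8 and 4 reads.

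The neighbouring gene Mt2 (mm10 chr8:94172664-94173568, plus strand), which encodes the other widely expressed metallothionein, had 15.7, 25.4, 48.9 and 61.7 RPM. Both MHY libraries were higher, from 11 reads each against 3 and 7, and the difference was not called (log2 1.26, SE 0.63, adjusted p = 0.997, limma voom). Metallothionein genes are known targets of MTF1, a zinc sensor that binds metal-response elements with the core TGCACNC or TGCGCNC. RefSeq promoters (GRCm38.p6, 250 bases before to 50 after the start, both strands searched) held 3 matches in Mt1 and 4 in Mt2. Among genes tested for counts that have a RefSeq promoter, 1129 of 2800 (40.3%) held at least 1. A match in each gene is shown with its core in capitals, at chr8:94179055-94179084 and chr8:94172479-94172508, both on the plus strand.
Mt1: cggtcccgctgTGCACACtggcgctccagg
Mt2: cgcagacccttTGCGCTCagctcctttgct

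The third question was how groups of genes with 1 function behaved. Genes of lysosomes and autophagy had more reads in both MHY libraries. Their summed reads were 2868, 2846, 4023 and 3773 RPM, with the treatments separated overall and in each of the 3 runs. Of 34 genes, 21 were tested, and 0 were called. The log2 fold change was positive for 16 and negative for 5, with a median fold of 1.27 against 1.01 over all transcripts tested. The 2 MHY values were the highest of the 4 for 11 of the 21 (52.4%), against 16.6% of all transcripts tested, and the lowest for 0 (background 17.3%). An unadjusted p under 0.05 was reached by 7, all higher, against 2.66% of all transcripts in that direction. The median log2 fold change, 0.35, was 0.73 in run 3.

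Over all 8 libraries of the series, the most reads in this list belonged to a proton pump subunit, a membrane glycoprotein and an autophagosome protein. Atp6v0c, of the pump that acidifies lysosomes, had 455, 348, 627 and 499 RPM (log2 0.53, SE 0.18, adjusted p = 0.873, limma voom). Lamp1, the main glycoprotein of the lysosomal membrane, had 178, 239, 262 and 275 (log2 0.35, SE 0.23, adjusted p = 0.997, limma voom). Gabarap, which is coupled to autophagosome membranes, had 162, 138, 307 and 247 (log2 0.91, SE 0.24, adjusted p = 0.284, limma voom) and had the lowest p after Ftl1 and Mt1, though its values overlapped in run 3. In these 3, both MHY libraries were higher. Npc2, a cholesterol carrier of the lysosome named after its values were seen, had more reads than Gabarap at 24 h and overlapped, with 272, 167, 240.03 and 252 RPM (log2 0.26, SE 0.23, adjusted p = 0.997, limma voom). Among reads with a barcode confidence of at least 0.9, Gabarap passed the threshold (log2 1.204, adjusted p = 0.0491).

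Further members, named after their values were seen, covered other parts of the lysosome. The proteases Ctsl (168, 149, 244 and 235.5 RPM) and Ctsb (52.3, 72.5, 124 and 101), the granulin precursor Grn (52.3, 76.1, 111 and 129), and the pump subunits Atp6v0d1 (57.6, 102, 151 and 135) and Atp6v1a (73.3, 36.25, 84.5 and 95.3) were all higher in the MHY libraries, with log2 fold changes from 0.62 to 0.86. The protease Ctsd did not share this, with 209, 178, 151 and 207 RPM. Nor did Gabarapl2, with 131, 178, 124 and 146. Apoe, a lipid carrier outside the list with the next lowest p, had 27, 44, 55 and 56 reads (log2 0.85, SE 0.24, adjusted p = 0.575, limma voom).

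Many lysosomal genes are known to carry an E-box bound by TFEB, a factor that active mTOR keeps in the cytoplasm, with the letters TCACGTGA at its centre. RefSeq promoters were given for 17 of the 21 tested members, and TCACGTGA was present in 4 of them (23.5%), against 79 of the 2800 tested genes with a promoter (2.82%). The shorter CACGTG, which the longer motif contains, was present in 6 (35.3%) against 399 (14.2%). The 4 genes are shown with CACGTG in capitals. They lie at chr8:105566050-105566079 (minus), chr16:44139373-44139402 (minus), chr2:164833749-164833778 (plus) and chr7:142387908-142387937 (minus) of GRCm38.p6. A match is a description of the letters and not evidence of binding, and Ctsd, with its counts overlapping, holds the motif too. The shares follow from the choice of lysosomal genes and do not bear on MHY1485. The Tfeb transcript counted here had 0 RPM in all 4 libraries.
Atp6v0d1: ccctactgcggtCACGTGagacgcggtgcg
Atp6v1a: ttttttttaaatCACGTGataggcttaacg
Ctsa: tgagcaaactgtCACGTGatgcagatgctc
Ctsd: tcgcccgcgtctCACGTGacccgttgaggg

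**Figure D2:**
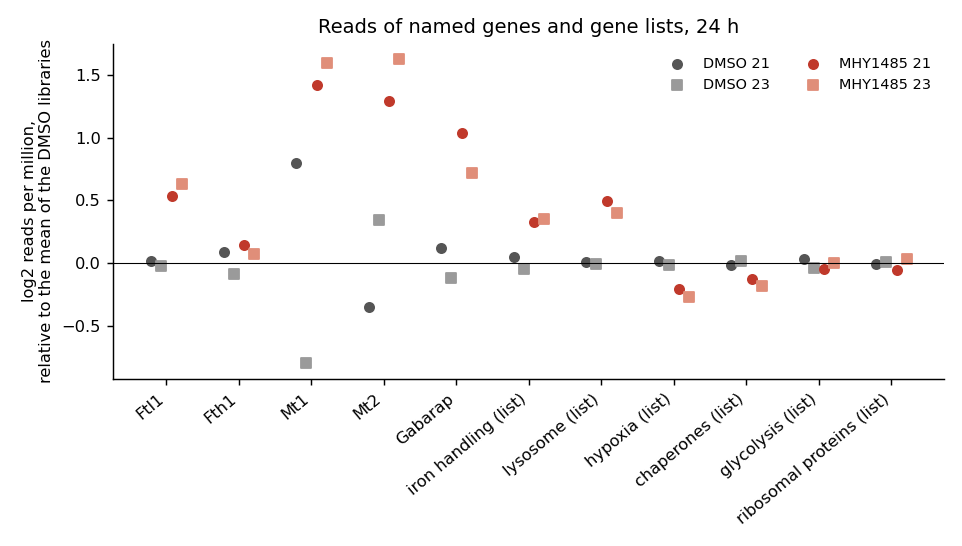
The log2 of RPM, relative to the mean of the 2 DMSO libraries, for 5 genes and for the summed reads of 6 gene lists; grey points are DMSO and red points MHY libraries, circles library 21 and squares library 23. Ftl1, Gabarap, iron handling and lysosome reads lie higher in both MHY libraries, the DMSO points of Mt1 lie far apart, and glycolysis and ribosomal protein reads overlap.

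Genes induced by low oxygen and genes of protein folding were lower in summed reads. Hypoxia-response genes outside glycolysis took 0.175%, 0.170%, 0.150% and 0.1435% of the reads. Of 20 such genes 8 were tested, 7 had negative log2 fold changes (median -0.37), and the 2 MHY values were the lowest for 4 (50%), against 17.3% of all transcripts tested. By reads, the first 3 were Higd1a, a mitochondrial stress protein (361, 305, 324 and 319.6 RPM), Fam162a, a mitochondrial hypoxia target (361, 366, 280 and 297), and Bnip3, a mitophagy receptor (340.2, 290.002, 262 and 229.9). The groups separated in the last 2. The exception in sign was Hif1a, the oxygen-regulated transcription factor, listed at 0, 68.9, 71.1 and 72.9 RPM. None was called. The median was -0.029 in run 2 and -0.0715 in run 3, where the summed reads overlapped, and -0.24 without MHY library 23.

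Heat-shock and endoplasmic reticulum chaperones took 1.40%, 1.44%, 1.30% and 1.25% of the reads. Of 24 tested, 18 had negative log2 fold changes with a median of -0.18, 8 lay below, with both MHY values under both DMSO values (33.3%), and 0 above, against 17.3% below and 16.6% above among all transcripts tested. Hsp90ab1, the constitutive cytosolic chaperone, had 3575, 3161, 3276 and 2831 RPM and overlapped, as did Hspa8 (2717, 3107, 2280 and 2753) and Hspe1 (1319, 1305, 1338 and 1261). Hspd1, the mitochondrial chaperonin, was separated at 764, 699.6, 489 and 527 RPM (log2 -0.52, SE 0.17, adjusted p = 0.763, limma voom). It was named after its values were seen. The median of the list was -0.10 without DMSO library 23 or without MHY library 23, and -0.0035 in run 3, where the summed reads overlapped.

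The genes that carry out translation and energy metabolism made up much of the RNA, and their summed reads mostly overlapped between treatments. Ribosomal protein genes took 31.2%, 31.6%, 30.2% and 32.1% of the reads and overlapped. All 83 were tested, with a median log2 fold change of -0.02 for the 49 of the large subunit and -0.01 for the 34 of the small subunit, and 0 reached an unadjusted p under 0.05. Glycolysis took 3.02%, 2.88%, 2.86% and 2.95% of the reads. Gapdh had 7867, 7449, 7788 and 8561 RPM (log2 0.10, SE 0.08, adjusted p = 0.997, limma voom), and Pkm and Ldha, pyruvate kinase and lactate dehydrogenase, overlapped as well. Of 17 glycolytic genes tested, the MHY values were the lowest in 5 (29.4%, against 17.3% of all transcripts tested), among them the glucose transporter Slc2a1 at 204, 199, 133 and 140.2 RPM and Hk2, hexokinase, at 11, 6, 1 and 0 reads. These 2 were named after their values were seen, and neither was called. Oxidative phosphorylation (75 tested, median log2 0.02) and the tricarboxylic acid cycle (25 tested, median 0.03) were close to all transcripts.

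Some translation lists were lower in both MHY libraries by small amounts. Elongation factors and other TOP mRNAs took 3.65%, 3.59%, 3.50% and 3.42% of the reads, and ribosome biogenesis factors 0.734%, 0.769%, 0.716% and 0.683%. Among the latter, 12 of 33 lay below (36.4%, against 17.3% of all transcripts tested), and the most abundant, Ncl, the nucleolar protein nucleolin, had 885, 1218, 725 and 863 RPM (log2 -0.41, SE 0.16, adjusted p = 0.997, limma voom). Initiation factors overlapped in sum. Genes of the mTOR pathway itself, from the kinase complexes and their regulators, took 0.123%, 0.131%, 0.134% and 0.143%, slightly higher in the MHY libraries, with 7 of 11 tested positive (median log2 0.13), 2 above (18.2%, against 16.6% of all transcripts tested) and 0 called. Factors that make, bind and remove poly(A) tails took 0.175%, 0.165%, 0.1725% and 0.156% and overlapped. Nasp, a histone chaperone, had the lowest p among transcripts that were lower, with 29, 59, 18 and 19 reads (log2 -1.004, SE 0.29, adjusted p = 0.607, limma voom).

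The fourth question was whether the tails of these groups differed. Tail classes and medians were tested for the 1866 transcripts that reached 10 reads in every library, and 0 were called in any measure (limma, adjusted p under 0.05). At an unadjusted p under 0.05 there were 45 higher (2.41%) and 64 lower (3.43%) for the share under 30 nt. For the share of 30 to 90 nt there were 64 higher (3.43%) and 19 lower (1.02%), and for the median 40 higher (2.14%) and 42 lower (2.25%). With the 24 h libraries alone, or with a replicate block, 4 transcripts passed for the share of 30 to 90 nt.

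Ribosomal protein mRNAs had shorter medians in both MHY libraries. Pooled over the large-subunit list, the median tail was 94.8, 95.6, 93.0 and 93.0 nt, and over the small-subunit list 94.9, 96.1, 92.4 and 93.1 nt. Differences of -2.26 and -2.76 nt (exact permutation p = 0.33 for both, the smallest possible) exceeded the gap between the DMSO libraries, and the separation held in each of the 3 runs. Member by member, the median was below in both MHY libraries for 27 of 49 large-subunit mRNAs (55.1%) and 14 of 34 small-subunit mRNAs (41.2%), against 18.4% of all transcripts tested. The changes were negative for 39 of 49 and 28 of 34, with medians of -3.10 and -2.82 nt against -0.97 nt over all transcripts.

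More of these reads fell in the class of 30 to 90 nt. That class held 43.9%, 43.2%, 45.6% and 45.7% of large-subunit reads and 43.9%, 42.7%, 46.0% and 45.5% of small-subunit reads. Tails under 30 nt were 2.10%, 2.203%, 2.07% and 1.99% for the large subunit, pooled, a little lower in the MHY libraries. Its members were mixed, with 30 negative and 19 positive changes. Of the 49, 10 lay above (20.4%) and 9 below (18.4%), against 8.25% and 13.1% of all transcripts tested. An unadjusted p under 0.05 (limma) was reached by 6 higher and 1 lower. The small subunit had 2.12%, 2.12%, 2.07% and 1.97%, with 18 negative and 16 positive changes. Of its 34 members 4 lay above (11.8%) and 10 below (29.4%), with 2 higher and 3 lower at an unadjusted p under 0.05 (limma). Of the members, 21 (42.9%) and 15 (44.1%) lay above in the share of 30 to 90 nt, against 17.1% of all transcripts tested. The background holds many transcripts with few reads. Among transcripts with at least 500 reads at 24 h, a limit chosen after seeing the data, the median tail lay below for 43 of 91 ribosomal protein transcripts (47.3%), for 7 of 9 of glycolysis (77.8%) and for 29 of 134 others (21.6%). The median change of those 134 others was -0.01 nt, with 67 negative and 67 positive.

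Rplp2, an acidic protein of the ribosomal stalk, had the lowest p of all transcripts for the share of 30 to 90 nt. It held 31.7%, 34.7%, 43.0% and 40.8% of its reads in that class, from 741, 1010, 889 and 715 reads. The 95% Wilson intervals ended at 37.6% in DMSO 23 and began at 37.3% in MHY 23, so those 2 intervals overlapped narrowly. The change was 0.53 in log2 odds (SE 0.13, adjusted p = 0.351, limma, 8 libraries). With the spread taken from the 24 h libraries alone the same change gave an adjusted p of 0.00233, and with a replicate block 0.00134. Rplp1, its partner and the most abundant of the list, had medians of 94.6, 95.35, 90.7 and 90.5 nt, which did not overlap (-4.42 nt, SE 1.64, adjusted p = 0.951, limma). Rplp0, the base of the stalk, had mean medians of 86.9 nt in DMSO and 87.2 nt in MHY. Rplp1 and Rplp2, which are among those 10 members, had more tails under 30 nt in the MHY libraries, at 0.534%, 0.622%, 0.794% and 1.11% for Rplp1 and 0.270%, 0.495%, 1.01% and 0.699% for Rplp2. Neither was called.

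Eef1a1, the factor that brings aminoacyl-tRNA to the ribosome and the most abundant TOP mRNA outside the ribosomal proteins, also had more tails of 30 to 90 nt. Its share of 30 to 90 nt was 32.01%, 32.6%, 37.2% and 36.3%, and its median tail was 109.4, 108.5, 103.7 and 103.5 nt. The treatments did not overlap in either (log2 odds 0.28, SE 0.08, adjusted p = 0.449, and -5.24 nt, SE 1.59, adjusted p = 0.694, limma). With the 24 h libraries alone the former had an adjusted p of 0.00729. The pooled elongation and TOP list had medians of 99.8, 101.95, 97.5 and 99.0 nt, while of its 17 tested members 10 had negative changes and 3 (17.6%) lay below, close to the 18.4% of all transcripts tested. Npm1, nucleophosmin, and Tpt1 had mean medians of 92.7 and 91.5 nt in DMSO and 92.7 and 92.0 nt in MHY.

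TOP mRNAs were further described by their starts. In the 30 bases centred on the RefSeq start, an unbroken run of at least 8 pyrimidines was present for 18 of 36 large-subunit genes (50%), 11 of 26 small-subunit genes (42.3%) and 3 of 11 elongation genes (27.3%) with a promoter sequence. It was present for 4 of 16 glycolytic genes (25%), 7 of 64 of oxidative phosphorylation (10.9%) and 374 of all 2800 tested genes (13.4%). Rplp2 and Rps28, ribosomal protein genes with shorter medians in both MHY libraries, are shown beside 2 glycolytic genes, with the longest run in capitals. They were chosen after their values were seen. They lie at chr7:141447636-141447665 (plus), chr17:33824548-33824577 (minus), chr6:125165759-125165788 (minus) and chrX:106187085-106187114 (plus). Among these 4 only Rplp2 holds a run of at least 8, and the median tails of all 4 were shorter in both MHY libraries. The limit of 8 is longer than the shortest TOP motif the study describes, so a gene without such a run may still be a TOP gene. The measured Rplp2 transcript starts upstream of the window shown, at chr7:141447370. Whether the run bears on tail length was not tested.
Rplp2: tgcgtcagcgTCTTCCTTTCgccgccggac
Rps28: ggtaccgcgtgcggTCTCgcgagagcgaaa
Gapdh: Caaagagagggaggaggggaaatgagagag
Pgk1: ggaaggggtgggTCCgggggcgggctcagg

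**Figure D3:**
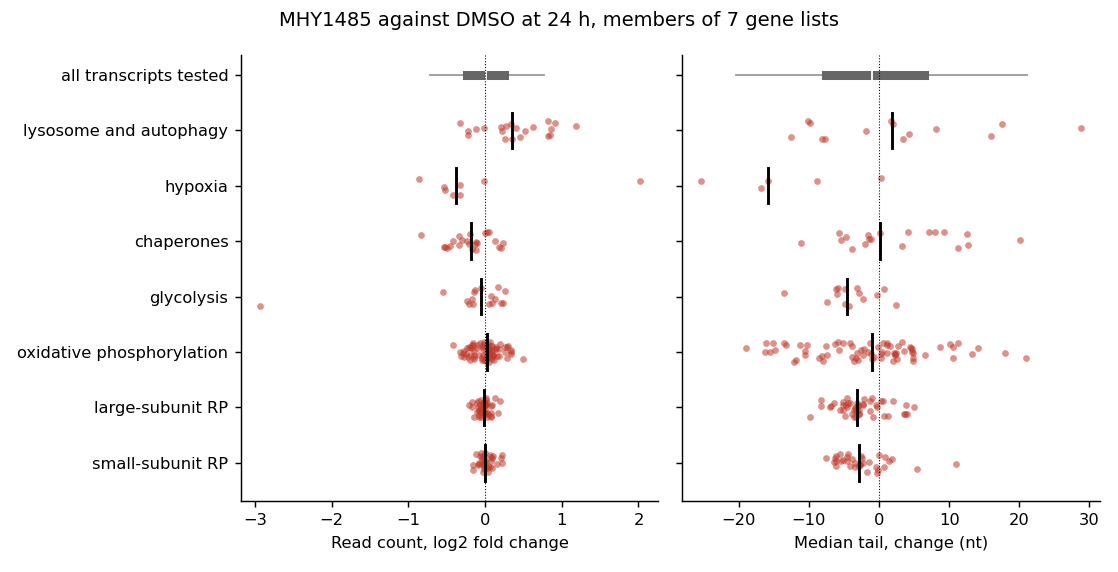
Change of each member (red points) of 7 gene lists in read count (left, log2 fold change) and in median tail (right, nt), MHY against DMSO, with the list median as a black bar; RP is ribosomal protein, and the grey bar spans the 5th to 95th percentile of all transcripts tested, thickened between the 25th and 75th percentiles. The lysosome list lies to the right in counts (median fold 1.27), and ribosomal protein and glycolysis members lie to the left in tails.

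Glycolytic mRNAs also had shorter medians in both MHY libraries. Pooled, their median tail was 108.5, 111.1, 104.8 and 105.7 nt, a difference of -4.56 nt (exact permutation p = 0.33, the smallest possible), and the share of 30 to 90 nt was 33.7%, 31.7%, 37.1% and 35.6%. The treatments were separated in both measures in all 3 runs. Of 14 transcripts tested the change of the median was negative for 12, and 6 lay below (42.9%) with 0 above, against backgrounds of 18.4% and 14.3%. The summed reads of the list overlapped, while Slc2a1 and Hk2 were among the 5 members with lower counts in both MHY libraries.

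Pgk1, phosphoglycerate kinase, had the lowest p of all transcripts for the median tail. Its medians were 123.8, 121.4, 110.2 and 107 nt, lower in both MHY libraries (-13.5 nt, SE 3.59, adjusted p = 0.612, limma). Gapdh, the next enzyme upstream, had median tails of 111, 110.0, 104.9 and 104 nt, and its share of 30 to 90 nt was 32.5%, 31.2%, 36.6% and 37.1% (log2 odds 0.33, SE 0.08, adjusted p = 0.352, limma, or 0.012 with the 24 h libraries alone). Ldha, which makes lactate, had a share of 36.9%, 34.1%, 45.0% and 42.4% (log2 odds 0.52, SE 0.15, adjusted p = 0.482, limma). Pkm overlapped, with medians of 107.2, 112.3, 105.0 and 107.4 nt.

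The share of 30 to 90 nt of Rplp2, Eef1a1, Gapdh, Ldha and Pgk1 was higher in both MHY libraries than in both DMSO libraries in each of the 3 runs, although the margin was small for some. In run 3, Eef1a1 had 36.31% in DMSO 23 and 36.31% in MHY 23, equal at this precision, and Rplp2 had 37.2% and 38.1%. The 3 runs hold the same 4 numbered samples. The study describes 2 independent preparations for each time point, and which run came from which was not worked out here, so the runs repeat the sequencing or the preparation and not the cultures.

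**Figure D4:**
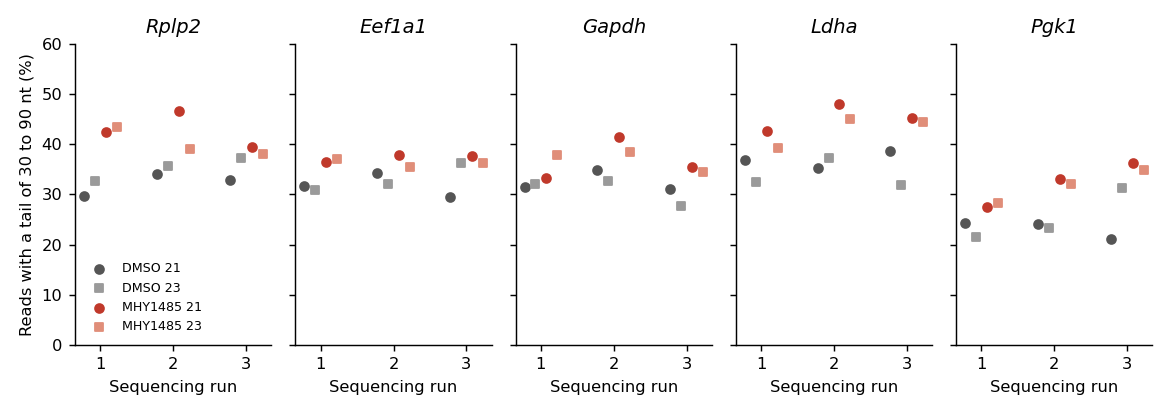
Percent of reads with a tail of 30 to 90 nt for 5 mRNAs in each library (grey DMSO, red MHY, circles 21 and squares 23), by sequencing run. Red points lie above grey points in every panel and run, with Eef1a1 of DMSO 23 and MHY 23 at 36.31% in run 3.

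**Figure D5:**
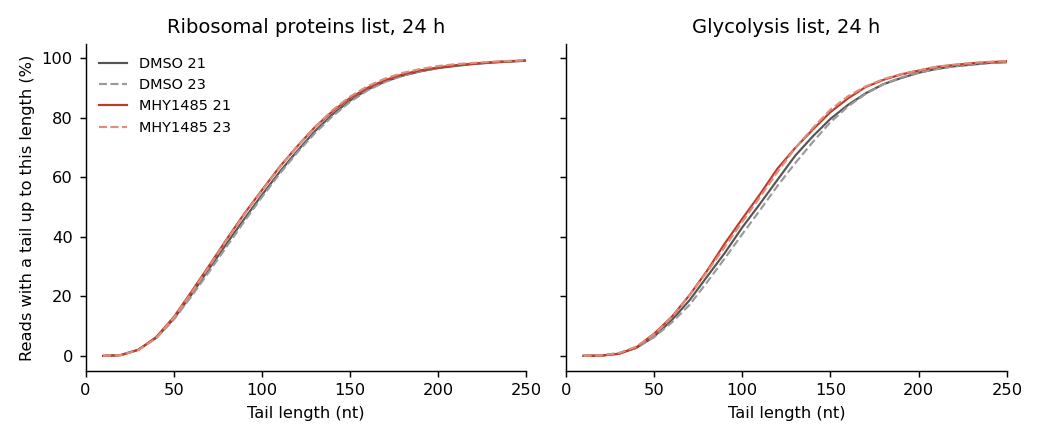
Cumulative percent of reads by tail length for all ribosomal protein genes and all glycolysis genes, in each of the 4 libraries. The MHY curves of glycolysis lie to the left of the DMSO curves around the median, and those of ribosomal proteins do so by about 2 nt.

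Hypoxia-response mRNAs had a pooled difference of -8.49 nt, on few reads. The medians were 110.0, 109.9, 104 and 98.7 nt, and the share of 30 to 90 nt was 33.8%, 34.0%, 40.1% and 43.4%. In run 1 the treatments overlapped in both measures, and the size of the difference varied widely between runs. Of 5 members tested 4 had negative changes of the median and 2 lay below (40%, against 18.4% of all transcripts tested). Fam162a had medians of 102.8, 103.5, 90.6 and 81.5 nt (-16.8 nt, SE 8.56, adjusted p = 0.997, limma). Oxidative phosphorylation had pooled medians of 100.0, 101, 98.2 and 98.4 nt, while its members were mixed, with 39 negative and 34 positive changes and 18 of 73 below (24.7%, against 18.4% of all transcripts tested). Cox5a, a subunit of cytochrome oxidase named after its values were seen, had 108.6, 113, 92.2 and 91.6 nt.

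For 3 further groups the changes were mixed, with shares below near the background for the latter 2. Over the tested members, the median change was -9.38 nt for sterol and fatty acid synthesis, with 8 of 12 negative and 3 below (25%). It was -3.36 nt for cell cycle and DNA replication, with 16 of 24 negative and 4 below (16.7%), and -2.27 nt for the tricarboxylic acid cycle, with 14 of 20 negative and 4 below (20%), against -0.97 nt, 1002 of 1866 negative and 18.4% below over all transcripts tested. Initiation factors had pooled medians of 100.1, 104.8, 101 and 107 nt, which overlapped, and 23 of their 32 tested members had positive changes (median 2.65 nt), with 8 above (25%, against 14.3% of all transcripts tested). Serine, one-carbon and ATF4 genes had 107.0, 103.9, 110.4 and 113 nt, higher in both MHY libraries when pooled, with 8 of 11 positive against 864 of 1866 over all transcripts, but 2 of 11 above (18.2%, against 14.3%) and 1 below. Lysosome genes (106.4, 110.7, 106.4 and 107.6 nt) and chaperones (102.4, 103.0, 103.1 and 102.1 nt) overlapped. In the shortest class, aminoacyl-tRNA synthetases had 3.33%, 4.52%, 2.42% and 2.54% of reads under 30 nt, with 4 of 17 members below (23.5%, against 13.1% of all transcripts tested). Elongation factors and other TOP mRNAs had 2.54%, 2.26%, 2.07% and 1.80%, lower in both MHY libraries, with 13 of 17 negative and 8 below (47.1%). Chaperones had 2.506%, 3.31%, 1.84% and 2.509%, which overlapped, with 15 of 19 negative and 6 below (31.6%).

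The 2 mRNAs called higher in amount did not have separated tails. Ftl1 had medians of 102.1, 109.1, 107.8 and 109.7 nt, and 39.4%, 32.7%, 32.9% and 32.7% of its reads in the class of 30 to 90 nt. Mt1 had 141, 119.5, 142 and 127 nt. In both mRNAs the medians of the DMSO libraries differed from each other by more than the treatment means did.

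The remaining transcripts with the lowest p for a tail measure mostly had few reads. For the median these were Rtn4, a reticulon of the endoplasmic reticulum (71.4, 103.45, 147 and 151 nt from 14 to 25 reads), Polr2j, a subunit of RNA polymerase II (140.5, 124, 105.0 and 79.3 nt), and Ahsa1, a cochaperone of HSP90 (99.1, 95.7, 130.035 and 126 nt). For the share of 30 to 90 nt it was Mcl1, an inhibitor of apoptosis (4.76%, 20.8%, 53.6% and 23.5% from 17 to 28 reads). For the share under 30 nt they were the ribosomal protein Rpl12, at 0.509%, 0.3326%, 1.06% and 1.37% from 584 to 902 reads, and Atp5j2, Paics, BC004004 and G3bp1, each with 0 such reads in both libraries of 1 treatment. Their adjusted p ranged from 0.677 to 0.804 (limma), so none of these differences passed.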

How the data were processed

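Poly(A) RNA of P19 cells was sequenced by direct RNA nanopore sequencing. The authors called bases with Guppy, assigned barcodes with Deeplexicon, aligned reads with minimap2 version 2.20 to GENCODE transcripts of mm10 and estimated tails with Nanopolish. The deposited table holds 1 line per alignment, with the tail length in nt, a barcode confidence as a fraction (0 to 1) and a mapping quality score. Of 1086686 alignments at 24 h, the 916878 read and transcript pairs with a passing tail tag were used (84.4%), and mitochondrially encoded, repeat and spike-in reads and those whose transcript type was a pseudogene were set aside, leaving 870249 (copies such as Ftl1-ps1 and Rps2-ps10, given another type, remained). Reads per transcript were counted from these lines. Mapping quality was at least 10 for 71.3% of kept reads.

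Transcripts that reached 10 reads in 2 or more libraries were tested with limma voom (limma 3.58.1, R 4.3.3) on all 8 libraries with median-of-ratios size factors. Tail classes were tested as log2 odds with a pseudocount of 0.5, and median tails in nt, by limma weighted by reads, for transcripts reaching 10 reads in every library. Read counts were made here from the lines. The scripts were tested on simulated data. Exact permutation tests over libraries are two-sided. P-values measure the spread between these samples. The members and gene lists were chosen with earlier results of these data known. Named genes are, per measure, the called ones, the 5 with the lowest p where fewer than 5 were called, Ftl1, Fth1, Mt1, Mt2 and Gapdh, and up to 3 members of each list with the most reads over the 8 libraries. Others, chosen after their values were seen, are Tfrc, Aco1, Ireb2, Npc2, Pcbp1, Ctsl, Ctsb, Grn, Atp6v0d1, Atp6v1a, Ctsa, Ctsd, Gabarapl2, Tfeb, Hif1a, Hspd1, Slc2a1, Hk2, Cox5a, Rplp2 in the shortest class and Rps28. Promoter sequences are from RefSeq (GRCm38.p6).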

Additional observations from a re-analysis of the deposited data

Results flagged for a closer look

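The effect of MHY1485 on read count differed between 48 h and 24 h for 9 transcripts (limma voom interaction, adjusted p under 0.05), 7 of them lower at 48 h (0.171% of those tested) and 2 higher (0.0487%). Those lower at 48 h are mostly glycolytic enzymes. For Pgk1 the difference in log2 fold change was -1.05 (-0.16 at 24 h, -1.20 at 48 h, adjusted p = 0.000566, limma voom). For Aldoa it was -0.99 (0.08 and -0.91, adjusted p = 0.00311), for Ldha -0.91 (-0.05 and -0.96, adjusted p = 0.00311), for Tpi1 -0.92 (-0.14 and -1.07, adjusted p = 0.00552), for Gapdh -0.56 (0.10 and -0.46, adjusted p = 0.00526) and for Pfkl -1.42 (0.24 and -1.18, adjusted p = 0.03). Tecr, of fatty acid elongation, had -1.99 (0.43 and -1.56, adjusted p = 0.03). Nop56, of ribosome biogenesis, had 1.26 (-0.36 and 0.90, adjusted p = 0.03), and Tmsb4x, which binds actin, had 1.12 (0.24 and 1.36, adjusted p = 0.03). Not all of these calls held when a library was left out. No run held libraries of both times, so time and run cannot be told apart.

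Mitochondrially encoded reads, left out of the comparisons, had tails over 90 nt in 5.18%, 5.29%, 6.45% and 5.71% of reads in DMSO 21, DMSO 23, MHY 21 and MHY 23, a mean of 6.08% in MHY, above both DMSO libraries (exact permutation p = 0.33, the smallest possible).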

How the results depend on the processing

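The deviations of same-numbered DMSO and MHY libraries were hardly correlated (0.0428 over 4104 transcripts). Counting error can hide a pairing, so this does not settle whether the library numbers pair the samples. Calls of higher read count, 2 as reported, were 30 with no filter (29 lower), 0 with limma-trend, 1 with a replicate block, 1 at mapping quality of at least 10, and 0, 1 and 0 in runs 1, 2 and 3. Leaving out a library gave 0 to 1. Calls for the share of 30 to 90 nt, 0 as reported, were 4 with 24 h libraries alone, 4 with the replicate block, 2 with bounds of 40 to 80 nt and 1 in run 1, and for the share under 30 nt 0 to 1 when a library was left out. Weights by binomial precision, chosen after seeing the data, gave 0 calls. The 9 interaction calls for read count were 14 per gene and 0 to 7 without a library, and those for the share under 30 nt were 4 at mapping quality of at least 10 and 0 to 2 without a library.

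The lysosome median log2 count change (0.35) was 0.43 when every library needed 10 reads, 0.42 at barcode confidence of at least 0.9, 0.73 in run 3 and 0.38 to 0.47 without a library. The hypoxia median (-0.37) was -0.34 with upper-quartile factors, -0.33 when every library needed 10 reads, -0.33 with 24 h alone, -0.34 with the replicate block, -0.31 at mapping quality of at least 10, -0.39 at barcode confidence of at least 0.9, -0.33 per gene, -0.50, -0.029 and -0.0715 in runs 1, 2 and 3, and -0.36 to -0.24 without a library. The chaperone median (-0.18) was -0.0035 in run 3 and -0.25 to -0.10 without a library. The ribosomal protein count medians ran from -0.083 to 0.0652 (large) and -0.0573 to 0.098 (small) without a library, changing sign.

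Pooled tails differed by -4.51, -11.3 and -20.9 nt for hypoxia in runs 1, 2 and 3, with shares of 30 to 90 nt of 2.56, 10.5 and 12.5 points, by -2.88 nt and 2.42 points for the large subunit in run 3, and by -3.06 nt for oxidative phosphorylation at barcode confidence of at least 0.9. Summed reads differed in log2 by -0.29 at barcode confidence of at least 0.9 and -0.28, -0.35 and -0.0257 in the runs for hypoxia, by -0.19 at that confidence and -0.0752 in run 3 for chaperones, by 0.40 in run 2 for iron and by 0.50 in run 3 for lysosomes. Fth1 reads were reversed in run 3 (-0.0484) and Gapdh reads at mapping quality of at least 10 (-0.0948). The causes were not tested. Few reads limit Mt1, Mt2 and hypoxia genes.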
